A study of Mus musculus with 6 samples.

Results

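Keratins of the upper layers of stratified epithelium were followed in dental epithelial organoids (DEOs) grown in 4 media. The genes are 8 keratins chosen by symbol, in 3 classes. Krt1, Krt2 and Krt10 are known from the suprabasal layers of the epidermis, and Krt4, Krt13, Krt76 and Krt78 from mucosa or other stratified linings. Krt80 was taken on its own. All 8 are among the 51 keratin genes and 47360 gene symbols of the deposited table, and 7 of them were above 0 in at least 1 library.

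The DEOs were derived from adult dental epithelial stem cells in the apical bud of the incisor of wild-type C57BL/6J female mice aged 9 weeks, embedded in Matrigel and cultured for 14 days. Every medium held Wnt3a-conditioned medium at 50%, R-spondin1-conditioned medium at 5%, EGF at 100 µg/ml and Noggin, a Bmp antagonist, at 200 µg/ml, besides N-acetylcysteine and Y27632. This base is the +N medium. +ND also contained dibenzazepine (DBZ), an inhibitor of the enzyme that releases the active part of Notch receptors, at 10 µM, +NF contained FGF10 at 100 µg/ml, and +NFD contained both. Doses are those of the sample labels. Media with Jagged1, named +NJ and +NFJ, were not analysed here. Each medium has 1 library, so differences between media could not be checked against replicates, and no test was made.

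Keratins form filaments from pairs of a type I and a type II protein. Basal cells make Krt14 with Krt5. When a cell leaves the basal layer of the epidermis it is known to switch to Krt10 with Krt1, and Krt2 follows in the upper layers of some skin sites. The lining of the mouth and esophagus uses Krt13 with Krt4 in the same position, and Krt76 is known from the palate and gingiva. Krt80 is known from differentiating cells of many epithelia, where it lies near desmosomes. Notch signaling is known to favour the step from the basal to the spinous layer.

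Levels are given in FPKM, the number of fragments scaled to transcript length and to the mapped fragments of the library. The levels of the single genes above 0 fell into 2 orders, and neither order was confined to the epidermal or to the mucosal class. Krt10, Krt13 and Krt4 were highest in +N and followed the order +N, +ND, +NFD, +NF. Krt1, Krt76, Krt78 and Krt80 were highest in +ND and followed the order +ND, +NFD, +N, +NF. Each order holds epidermal and mucosal keratins, and the classical pair of Krt1 and Krt10 was divided between them. +NF was the lowest of the 4 libraries for all 7 keratins above 0. Among the 13748 genes that reached 1 FPKM in some library, the first order was that of 203 genes, or 1.48%, the second that of 734, or 5.34%, and +NF was lowest for 15.5%. In bulk libraries, fewer suprabasal cells and less RNA per cell cannot be told apart.

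**Figure D1:**
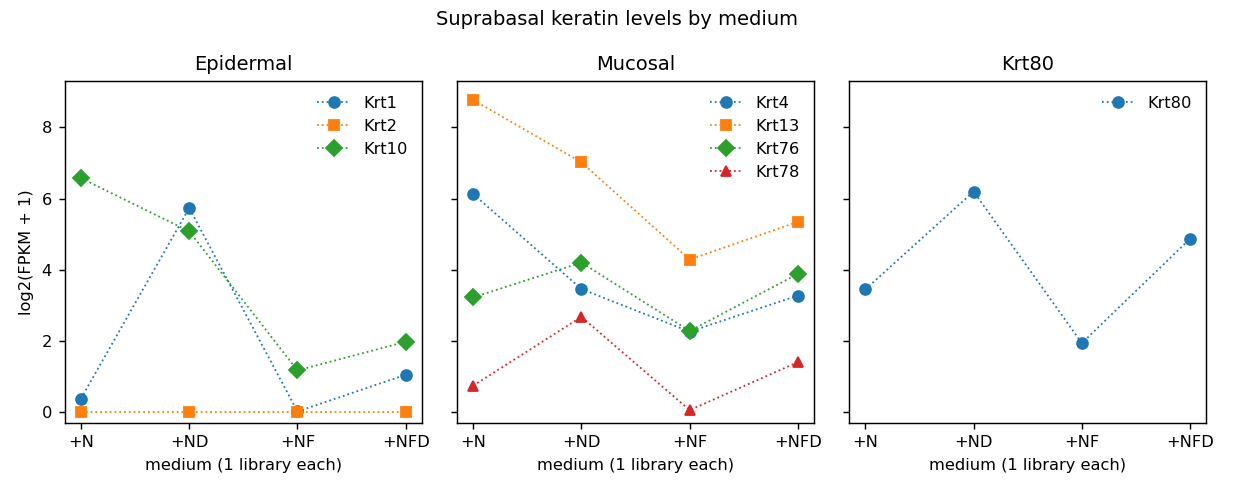
Level of each keratin as log2(FPKM + 1) on the vertical axis in the 4 media, with 1 library each and dotted lines that only join the points of a gene. Krt10, Krt13 and Krt4 are highest in +N, Krt1, Krt76, Krt78 and Krt80 are highest in +ND, and Krt2 is listed at 0 throughout.

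The type I members lie in the keratin cluster of chromosome 11 and the type II members in that of chromosome 15 of GRCm38, all on the minus strand. Upstream sequences of RefSeq transcripts on GRCm38.p6 were at hand for 5 of the 8 genes. Those of Krt10 and Krt13, which share the first order, and of Krt76 and Krt78, which share the second, are shown to set the orders beside the sequences. Each is the 250 bases before the transcription start, 5′ to 3′ on the gene's strand. Capitals mark 3 sets of letters, on either strand. TGGGAA is the core bound by RBPJ, the DNA-binding partner of Notch. TGANTCA is bound by AP-1 factors. TATAAA is the common element that positions the start of transcription.
Krt10, minus strand of chr11:99389365-99389614: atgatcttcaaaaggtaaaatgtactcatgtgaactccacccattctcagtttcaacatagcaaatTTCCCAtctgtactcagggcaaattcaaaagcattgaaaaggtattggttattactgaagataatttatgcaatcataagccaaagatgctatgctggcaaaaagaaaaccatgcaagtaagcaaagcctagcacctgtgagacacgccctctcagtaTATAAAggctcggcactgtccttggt
Krt13, minus strand of chr11:100121567-100121816: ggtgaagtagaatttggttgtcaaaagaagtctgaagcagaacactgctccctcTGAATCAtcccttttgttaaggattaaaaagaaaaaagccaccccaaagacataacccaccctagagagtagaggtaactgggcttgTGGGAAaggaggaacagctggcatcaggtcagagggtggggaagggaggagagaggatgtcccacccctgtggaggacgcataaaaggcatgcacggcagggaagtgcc
Krt76, minus strand of chr15:101892921-101893170: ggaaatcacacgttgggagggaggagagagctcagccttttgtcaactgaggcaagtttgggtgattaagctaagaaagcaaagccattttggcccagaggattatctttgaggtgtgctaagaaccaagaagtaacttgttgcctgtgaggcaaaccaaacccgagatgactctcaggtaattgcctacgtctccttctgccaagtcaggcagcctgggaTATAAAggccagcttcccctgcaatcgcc
Krt78, minus strand of chr15:101954288-101954537: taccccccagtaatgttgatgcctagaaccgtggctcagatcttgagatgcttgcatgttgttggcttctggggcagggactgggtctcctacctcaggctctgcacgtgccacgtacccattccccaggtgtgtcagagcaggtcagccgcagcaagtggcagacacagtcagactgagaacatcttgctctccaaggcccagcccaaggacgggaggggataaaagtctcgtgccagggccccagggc

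TGGGAA stood once in the Krt13 window, 109 bases before the start, and once in the Krt10 window, on the opposite strand. On the gene's strand it reads TTCCCA there, with the first T 184 bases before the start. It was not in the windows of Krt76, Krt78 or Krt2. The same letters are in 21.6% of 32851 upstream windows of this length. TGANTCA was in the Krt13 window, 196 bases before the start, and in 6.75% of all windows. TATAAA stood 26 bases before the start of Krt10 and 29 bases before that of Krt76, and is in 12.4% of all windows. Of the other letters searched, CACCC, bound by Klf factors, occurred 4 times in Krt13, once each in Krt10, Krt76 and Krt2, and in 52.0% of all windows. TTNNGNAA, a C/EBP pattern, occurred in Krt10 at 2 positions and in Krt2, against 36.8% of all windows, and AACNGGTT, a Grhl pattern, was in none of the 5 and in 1.79% of all. No binding was measured, so these letters describe the sequences only.

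Krt10 (ENSMUSG00000019761, chromosome 11 from 99385254 to 99389364) was at 94.1 FPKM (+N), 32.8 (+ND), 1.25 (+NF) and 2.93 (+NFD). The level was thus high in +N, intermediate in +ND and low in both media with FGF10. Krt13 (ENSMUSG00000044041, chromosome 11 from 100117327 to 100121566) was at 435 FPKM (+N), 129 (+ND), 18.5 (+NF) and 39.7 (+NFD), and was the most abundant of the 8 in all 4 libraries. Krt4 (ENSMUSG00000059668, chromosome 15 from 101918536 to 101924735), the type II partner of Krt13, had 69.0, 9.98, 3.79 and 8.68 FPKM in that order of media. In contrast to Krt10, its levels in +ND and +NFD were close to each other.

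Krt1 (ENSMUSG00000046834, chromosome 15 from 101845428 to 101850786), the type II partner of Krt10, was at 0.300 FPKM (+N), 52.2 (+ND), 0.0123 (+NF) and 1.07 (+NFD). Its level in +ND was thus far above that in the other 3 libraries. By the smallest steps between FPKM values, which show what 1 fragment is worth in each library, its level rests on about 2794 fragments in +ND, 70.9 in +NFD and 20.5 in +N. The level in +NF was lower than that of 3 fragments, 0.0438 FPKM. Fragment numbers are approximate, and intervals made from them cover counting error only.

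Krt76 (ENSMUSG00000075402, chromosome 15 from 101884351 to 101892920) was at 8.33 FPKM (+N), 17.4 (+ND), 3.86 (+NF) and 13.8 (+NFD), the narrowest range of the 7 as a ratio of the highest to the lowest level. Krt78 (ENSMUSG00000050463, chromosome 15 from 101946004 to 101954287) had 0.673, 5.39, 0.0392 and 1.65 FPKM in that order of media, and its level in +NF rests on about 3.76 fragments. Krt80 (ENSMUSG00000037185, chromosome 15 from 101349571 to 101370125) was at 9.91, 72.3, 2.83 and 28.3 FPKM. These 3 keratins, like Krt1, were higher in both media with DBZ than in either medium without it. Krt2 (ENSMUSG00000064201, chromosome 15 from 101810689 to 101818169) was listed at 0 in all 4 libraries, where 3 fragments correspond to between 0.0411 FPKM in +NF and 0.0527 in +ND.

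DBZ without FGF10, in +ND against +N, divided the members most sharply. Ratios are given as log2((FPKM + 1)/(FPKM + 1)), which understates changes of low genes. A gene was compared if its level reached 1 FPKM in the higher of the libraries, and was called changed at 2-fold. Krt1 rose by 5.35 on this scale, Krt80 by 2.75 and Krt78 by 1.93. Krt4, Krt13 and Krt10 fell, with ratios of -2.67, -1.75 and -1.49. Of the 7 members that passed the filter, 3 were called higher and 3 lower, against 5.88% and 5.29% of the 13173 genes compared. Krt1 and Krt78 passed through +ND alone, so they could only come out higher. Krt76 missed the call at 0.98, and it was 2.09-fold higher without a pseudocount. The median over all genes was 0.10 in this comparison, 0.12 in +NF and 0.18 in +NFD against +N, and ratios less this median are named centred here.

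Without a pseudocount, Krt1 was 174-fold higher in +ND than in +N, with a 95% counting interval of the log2 ratio from 6.79 to 8.10, and Krt10 was 2.87-fold lower. Krt5 and Krt14 of the basal layer were together 1.83-fold lower in +ND, at 10514 FPKM against 19234, with log2 ratios of -0.40 for Krt5 and -1.19 for Krt14. The 12 basal genes listed had a median of -0.24, so the sum follows Krt14 more than the list. Scaled to the sum of both, only Krt4 kept a 2-fold lower call in +ND, and the ratios became -0.64 for Krt10 and -0.88 for Krt13.

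FGF10 without DBZ, in +NF against +N, was accompanied by lower levels of all 7 detected members. The log2 ratios were -5.40 for Krt10, -4.48 for Krt13, -3.87 for Krt4 and -1.51 for Krt80. These 4 of the 5 members that passed the filter were called lower, against 2.44% of 13090 genes, and 0 were called higher, against 2.76%. Krt76 had a ratio of -0.94, which was -1.06 after centring. Krt1 and Krt78 were under 1 FPKM in both libraries and were not compared. Without a pseudocount Krt10 was 75.1-fold and Krt13 23.5-fold lower in +NF. The sum of Krt5 and Krt14 was 1.30-fold lower, with log2 ratios of -0.010 for Krt5 and -0.61 for Krt14, while the median of the 12 basal genes was 0.20.

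With DBZ present, the levels were again lower in the medium with FGF10. In +NFD against +ND all 7 members that passed the filter had lower values, and 5 were called, against 3.11% of 13293 genes called lower. None was called higher, against 3.39% of these genes. The ratios were -4.68 for Krt1, -3.10 for Krt10, -1.67 for Krt13, -1.33 for Krt80 and -1.27 for Krt78. Krt4 and Krt76 were not called, at -0.18 and -0.32. For Krt4 the level with DBZ hardly moved with FGF10, at 9.98 FPKM in +ND and 8.68 in +NFD, whereas without DBZ it was 18.2-fold lower with FGF10.

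DBZ in the presence of FGF10, in +NFD against +NF, was accompanied by higher values of all 7 detected members. Krt80 rose by 2.93, Krt76 by 1.60, Krt78 by 1.35, Krt13 by 1.06, Krt1 by 1.03 and Krt4 by 1.01, and Krt10 was not called at 0.80. The 6 calls stand against 3.72% of 13349 genes called higher, and 0 lower calls against 2.69%. Krt1 and Krt78 passed the filter through +NFD alone, so they could only come out higher. With a filter at 5 FPKM, which removed both and Krt10, 4 members were called higher and 0 lower. The calls of Krt1 and Krt4 lay next to the limit, and after centring they were 0.98 and 0.97. Under upper-quartile scaling Krt4 was at 0.96, and under either alternative 4 members were called higher. Without a pseudocount the log2 ratio of Krt1 was 6.44, with a counting interval from 3.67 to 11.52, and that of Krt78 was 5.39, both from a few fragments in +NF. Krt10 was then 2.34-fold higher in +NFD.

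The DBZ ratio had opposite signs without and with FGF10 for 3 of the 7 keratins compared in both pairs of media, against 38.7% of 12774 genes, so that opposite signs as such were as common over all genes. Krt10, Krt13 and Krt4 were lower with DBZ in the media without FGF10 and higher with DBZ in the media with it. These pairs of media have no library in common. The log2 difference between the DBZ ratios with and without FGF10 was 3.69 for Krt4, 2.81 for Krt13 and 2.30 for Krt10. The largest in size was -4.32 for Krt1, which became -0.997 without a pseudocount. For Krt76 the difference was 0.62, and for Krt78 it was -0.58 and turned to 2.39 without a pseudocount. For Krt80 it was 0.18, the smallest in size of the 7, and 0.45 without a pseudocount. Without a pseudocount, Krt80 was 7.30-fold higher with DBZ in the media without FGF10 and 9.98-fold higher in the media with it. Krt4 and Krt13 were among 8 genes called lower without FGF10 and higher with it, which is 0.0626% of the 12774 genes compared in both pairs. Another of the 8 was Fabp4, a fatty acid-binding protein gene, and the others were Clu and 4 noncoding or predicted genes. Krt4 left this set after centring and under upper-quartile scaling, and Krt13 when scaled to Krt5 plus Krt14. The set was examined after the values of the keratins were seen. Whether the difference exceeds the variation between cultures was not tested.

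**Figure D2:**
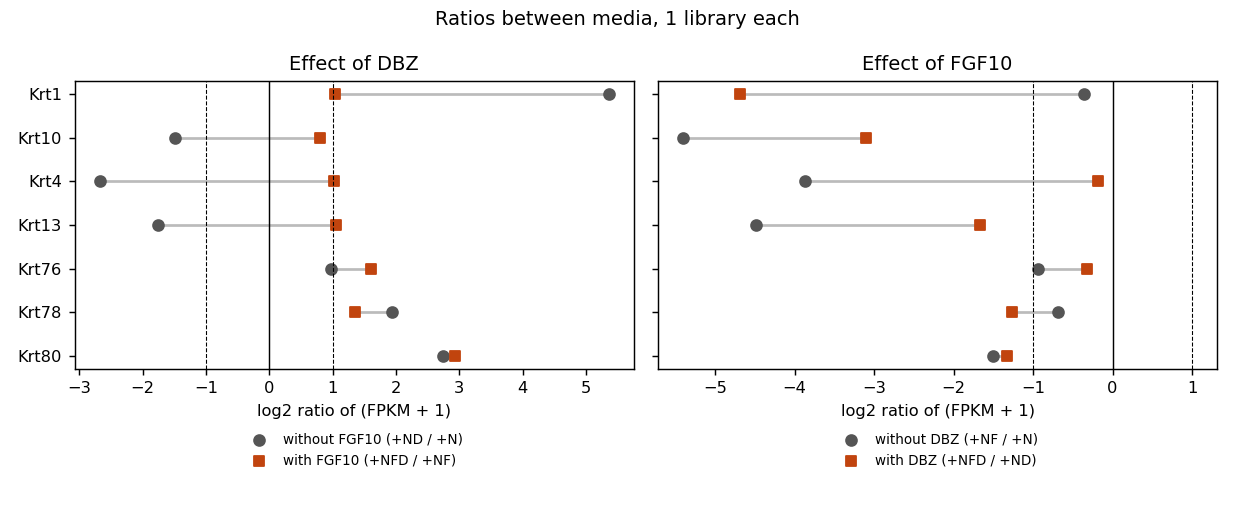
Log2 ratios of (FPKM + 1) on the horizontal axis for each detected keratin, with DBZ on the left and FGF10 on the right, as circles for the pair of media without the other factor and squares for the pair with it. The dashed lines mark a 2-fold ratio. For Krt10, Krt4 and Krt13 the circle and the square of DBZ lie on opposite sides of 0, while all FGF10 ratios are below 0.

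Against +N, the medium with both factors had low levels of Krt10, Krt13 and Krt4, while the other 4 detected keratins were near or above their levels in +N. The log2 ratios in +NFD were -4.60 for Krt10, -3.42 for Krt13 and -2.85 for Krt4, and Krt80 rose by 1.42. These are 3 lower and 1 higher calls among 7 members, against 4.03% and 5.85% of 13358 genes. Krt1, Krt76 and Krt78 were at 0.67, 0.66 and 0.66, inside the 2-fold limit. Krt1 and Krt78 were 3.56-fold and 2.45-fold higher without a pseudocount, where the counting interval of the Krt1 log2 ratio ran from 1.08 to 2.58. Both passed the filter through +NFD alone, so they could only come out higher. The sum of Krt5 and Krt14 was 1.57-fold lower in +NFD than in +N, with log2 ratios of -0.092 for Krt5 and -1.05 for Krt14, while the median of the 12 basal genes was 0.077.

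The balance within the classical pairs moved with the medium. The FPKM of Krt1 per FPKM of Krt10 was 0.00319 (+N), 1.59 (+ND), 0.00981 (+NF) and 0.365 (+NFD). In +NF the level of Krt1 was under that of 3 fragments, so the value for that medium is not exact. The 2 transcripts of the epidermal pair were thus near parity in +ND and far from it in +N, where Krt10 stood almost without Krt1. Krt4 per Krt13 was between 0.0776 in +ND and 0.219 in +NFD, with 0.159 in +N and 0.205 in +NF, a much narrower range. Over all 8 genes, type II transcripts summed to 88.2 FPKM and type I transcripts to 529 in +N, and to 157 and 161 in +ND. In +NFD the type II sum of 53.4 exceeded the type I sum of 42.6.

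As classes, the epidermal keratins summed to 94.4 FPKM (+N), 84.98 (+ND), 1.27 (+NF) and 4.002 (+NFD). The mucosal keratins summed to 513, 161, 26.2 and 63.7 FPKM, and were the larger class in every library. The epidermal share of both classes was 15.5% (+N), 34.5% (+ND), 4.61% (+NF) and 5.91% (+NFD). The near-equal epidermal sums in +N and +ND hide a change of composition, since Krt10 made up nearly all of the first and Krt1 most of the second. The ratio of the epidermal sum in +ND to +N was -0.15 on the log2 scale and turned to 0.71 when scaled to Krt5 plus Krt14. That of the mucosal sum was -1.66 and came inside the 2-fold limit, at -0.79, with this scaling. All 8 genes together made up 2.15% (+N), 1.60% (+ND), 0.153% (+NF) and 0.557% (+NFD) of the FPKM of keratin genes.

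**Figure D3:**
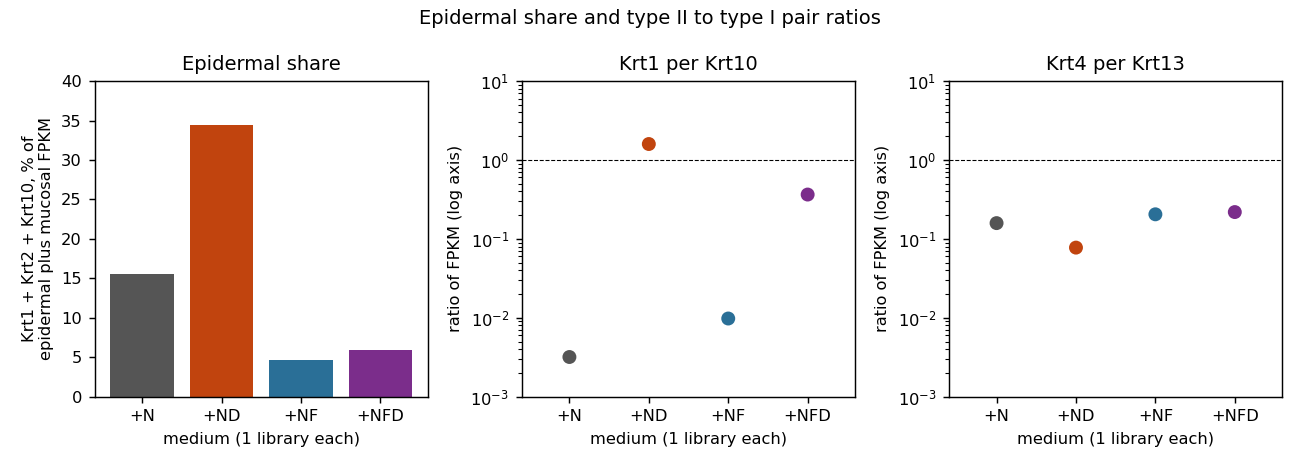
Share of the epidermal keratins in the FPKM of the epidermal and mucosal classes as bars from 0, and FPKM ratios of Krt1 to Krt10 and of Krt4 to Krt13 on log axes, with 1 library per medium. Krt1 per Krt10 runs from 0.00319 in +N to 1.59 in +ND, while Krt4 per Krt13 stays between 0.0776 and 0.219.

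Other genes of the suprabasal program were taken from lists written from general knowledge, with earlier results of these data known. Of 20 epidermal suprabasal genes, 19 passed the filter in +ND against +N, and 14 were called higher and 2 lower, against 5.88% and 5.29% of all genes. Their median log2 ratio was 1.91 against 0.10 over all genes. Among those called higher, Hrnr and Casp14 passed the filter through +ND alone, so they could only come out higher. Dsc1, which encodes a desmosomal cadherin of the upper epidermis, was at 2.39 FPKM (+N), 55.3 (+ND), 0.119 (+NF) and 8.79 (+NFD). Flg, the gene of filaggrin, which aggregates keratin filaments, was at 8.36, 58.1, 1.28 and 23.3 FPKM. Both followed the order of Krt1 and Krt80. The 2 genes called lower were Calml3, a calmodulin-like gene, at 199 FPKM in +N and 13.7 in +ND, and Lypd3 at 300.3 and 146. Among the 19 genes of this list that reached 1 FPKM in some library, 10 followed the order of Krt1 and 0 that of Krt10. Over all 13748 genes at this level the shares were 5.34% and 1.48%, so the count of 0 is near its share. In the mucosal list described next, 3 of 20 genes followed each order. Of 24 regulators of suprabasal differentiation at this level, 4 followed the order of Krt1 and 2 that of Krt10.

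The 20 genes of the mucosal list were divided. In +ND against +N 4 were called higher and 3 lower, against 5.88% and 5.29% of all genes, and the median log2 ratio was -0.058. Sprr1b and Cnfn, both called higher, are tied by the paper to keratinization, as is Sprr3, which was not called. The label of the list is thus a loose one. Tgm3, a transglutaminase gene, was at 2.24 FPKM (+N), 35.7 (+ND), 0.103 (+NF) and 3.62 (+NFD), and Crnn, the gene of cornulin, was at 3.73, 49.2, 1.81 and 26.4. On the lower side, Ecm1 was at 2485, 599, 1925 and 890 FPKM, and Rhcg, an ammonium transporter gene of the esophagus, had 2.81 FPKM in +N against 0 in +NFD. In +NF against +N, 10 of the 20 mucosal genes were called lower and 0 higher, with a median of -1.08, and 10 of the 17 epidermal genes compared were called lower and 0 higher, with a median of -1.60. Over all genes 2.44% were called lower and 2.76% higher in this comparison. In +NFD against +NF, 10 of 17 epidermal and 7 of 18 mucosal genes were called higher, and 1 of each lower, against 3.72% and 2.69% of all genes. Genes under 1 FPKM in 1 of the 2 libraries entered only through the other, so these counts do not stand for all members of the lists.

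**Figure D4:**
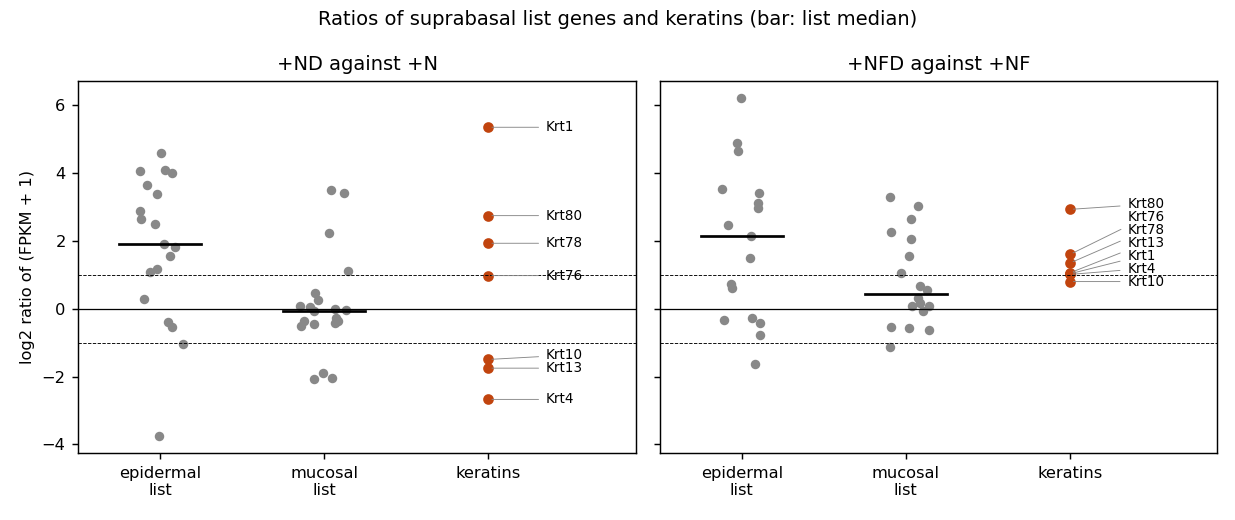
Log2 ratios of (FPKM + 1) on the vertical axis for genes of the epidermal and mucosal lists, with a bar at each median, and for the keratins, in +ND against +N and in +NFD against +NF. In the left panel Krt10, Krt13 and Krt4 lie below the lower dashed 2-fold line while the epidermal list has its median at 1.91, and in the right panel all 7 keratins lie above 0.

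Of 29 listed regulators of suprabasal differentiation, 24 passed the filter, and in +ND against +N 3 were called higher and 7 lower, against 5.88% and 5.29% of all genes. Klf4, a zinc-finger factor of the upper epidermis, was at 27.6 FPKM (+N), 68.2 (+ND), 14.0 (+NF) and 35.3 (+NFD), and Ovol1 was at 11.7, 35.1, 6.49 and 20.2, both in the order of Krt80. The third called higher was Maf. Nrarp, a direct Notch target, was at 18.2, 2.80, 9.12 and 2.60 FPKM, with log2 ratios of -2.34 for DBZ without FGF10 and -1.49 with it. Hes1, another Notch target, was at 157, 74.6, 109 and 80.1. Zfp750, a factor of epidermal differentiation, was also called lower in +ND, with a log2 ratio of -1.56, and in +NFD against +NF, with -1.16.

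Desmosome and plakin genes attach keratin filaments to cell junctions. Of 12 such genes, all above the filter, 1 was called higher and 1 lower in +ND against +N, near the 5.88% and 5.29% of all genes, 0 in +NF against +N, and 1 lower in +NFD against +N. Their median log2 ratios were -0.33, -0.57 and -0.67. Among 12 basal keratinocyte genes, 1 was called in each direction in +ND and in +NF, and 1 higher and 4 lower in +NFD against +N. Over all genes, 2.76% were called higher and 2.44% lower in +NF, and 5.85% and 4.03% in +NFD, so 1 of 12 is near these shares. Krt14 was the basal gene called lower in +ND, with 12652 FPKM in +N and 5530 in +ND, a log2 ratio of -1.19. Krt15, a basal type I keratin, was the one called lower in +NF, at 8.62 FPKM in +N and 2.39 in +NF.

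The genes whose profiles over the 4 libraries lay nearest to each keratin were sought among 9682 protein-coding genes that reached 5 FPKM in some library, by the Euclidean distance between centred log2(FPKM + 1) values. For Krt13 the nearest was Fabp4 at a distance of 0.73, with 149 FPKM (+N), 30.5 (+ND), 2.38 (+NF) and 7.24 (+NFD). Fabp4 was also nearest to Krt10, at 0.84, and Krt13 was the next after it at 1.20. Nearest to Krt4 was Fam83a at 0.47, and nearest to Krt1 was Tslp, the gene of an epithelial cytokine, at 1.16, with 2.37, 67.4, 2.03 and 6.81 FPKM in the same order of media. Krt80 lay next to Cnfn, the gene of cornifelin, at 0.38 and to Flg at 0.43. Krt78 was nearest to Ptgr1 at 0.19 and Krt76 to Acsbg1 at 0.27. Within a distance of 1 there were 0 genes for Krt1, 1 each for Krt10 and Krt13, 3 for Krt4, 20 for Krt80, 153 for Krt78 and 337 for Krt76, so among these candidates none lay this near to Krt1 and the most lay near Krt76. Krt1 and Krt10 were 5.14 apart, and Krt76 and Krt78 were the closest pair of members, at 0.78. These distances rest on 4 libraries. Adding 1 to the FPKM flattens profiles at low levels, such as that of Krt78, at 0.0392 FPKM in +NF and 5.39 in +ND. The closest pair and the counts within a distance of 1 therefore hold for this scale only, and distances without a pseudocount were not computed.

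Neighbours within the clusters had unlike levels. The stretch from Krt2 to Krt8 on chromosome 15 spans 194 kb and holds 8 keratin genes. Krt1 lies 27.3 kb from Krt2 and 7.95 kb from Krt77, and while Krt1 reached 52.2 FPKM in +ND, Krt2 was listed at 0 and Krt77 was at 0 in 3 libraries and at 0.0314 FPKM in +N. Krt76 and Krt4 are neighbours at 25.6 kb and had opposite DBZ ratios without FGF10. Between Krt4 and Krt78 lies Krt79, which reached 0.281 FPKM at most. Beyond Krt78, at 42.4 kb, Krt8 of simple epithelium was at 22.8 FPKM (+N), 0.574 (+ND), 86.0 (+NF) and 5.95 (+NFD), highest in the medium where the suprabasal keratins were lowest. On chromosome 11, Krt13 lies 10.2 kb from Krt15, and both were highest in +N and lowest in +NF. The neighbours of Krt10, Krt28 and Krt12, reached 0.382 FPKM at most.

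**Figure D5:**
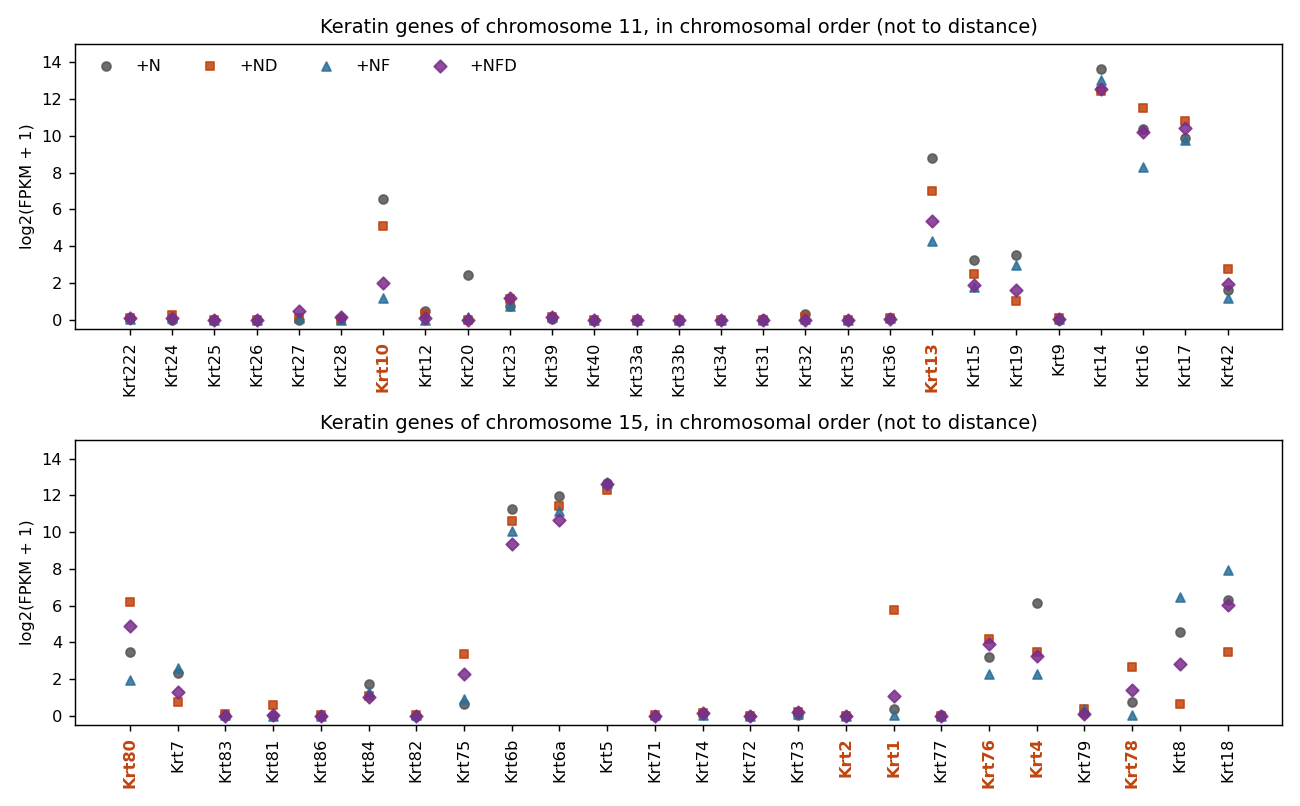
Level of all 51 keratin genes as log2(FPKM + 1) on the vertical axis, in chromosomal order for the 27 genes of chromosome 11 and the 24 of chromosome 15, with the 8 keratins described here in bold and 1 symbol per medium. Some detected suprabasal keratins stand beside neighbours under 1 FPKM, such as Krt1 between Krt2 and Krt77.

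Overlapping and related genes may bear on some of these values, because the strand setting of the quantification is not given in the sources used here. A microRNA annotated on the opposite strand within Krt76, Gm44356, was listed at 832 FPKM in +ND and at 0 in the other 3 libraries, and its part in the +ND value of Krt76 was not tested. Gm11940, antisense to Krt10, was at most 0.462 FPKM. Krt80 lies within Gm35853, annotated on the opposite strand and not among the entries used here. None of the 50-base windows of the main transcripts of Krt1, Krt2, Krt10, Krt4, Krt13, Krt78 and Krt80 occurs in a transcript of another gene, and 6 of the 2263 windows of Krt76, or 0.265%, are shared with Krt6a and Krt6b, which were abundant.

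Over the whole libraries, +ND had 0.783 times the depth of +N by the step of 1 fragment, +NF 1.00 times and +NFD 0.969 times. The 5 epithelial markers were at 1 FPKM or more in all 4 libraries. Of 6 dental epithelium markers 3 were, and the ameloblast genes Amelx, Ambn and Enam reached 1 FPKM only in +NFD. The summed FPKM of 5 simple epithelial keratins was 118 (+N), 12.2 (+ND), 339 (+NF) and 72.7 (+NFD), so it was lower with DBZ in both pairs of media. The sum of 6 fibroblast markers was 151, 125, 93.3 and 360, and that of 6 macrophage markers 599, 489, 428 and 364. Lyz2 made up most of the latter, at 528, 408, 373 and 288, whereas Cd68 was at 23.5, 36.2, 16.2 and 32.9, higher in both media with DBZ. All 4 endothelial and all 4 melanocyte markers stayed under 1 FPKM, and of 4 Merkel cell markers Isl1 and Sox2 were above it in every library and Atoh1 was listed at 0 in all. The part of these cell types in the keratin ratios was not tested.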

How the data were processed

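RNA of DEOs grown in 6 media was sequenced from TruSeq libraries, of which +N, +ND, +NF and +NFD, 4 libraries, entered the comparisons. Reads were checked with FastQC 0.11.9, trimmed with Trim Galore 0.6.5 and aligned to GRCm38 with TopHat2 2.1.1, per the processing notes of the submitters, and the authors estimated the deposited FPKM values with Cufflinks. Annotation release and strand setting are not given in the sources used here. FPKM divides by transcript length and library size, so abundant transcripts lower all others. Of 47493 entries, those of the same symbol were summed (123 symbols, no member). Transcripts and positions are from GENCODE mouse release 21 in the M series, where 46994 identifiers were found. The step of 1 fragment came from 8367 genes with 1 transcript of at least 1000 nt. Counting intervals are Clopper-Pearson, at 95%.

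A count test could not be used, and the DEGseq test of the paper was not repeated. With 1 library per medium, genes were called at a 2-fold ratio with a pseudocount of 1 and a filter at 1 FPKM in the higher library. Named are the 8 keratins, the keratins beside them, list genes and the 3 nearest profiles, some given as counts. The members and lists were chosen with earlier results of these data known. Alternatives were a pseudocount of 0.1 or none, no filter or one at 5 FPKM, upper-quartile scaling, centring, scaling to Krt5 plus Krt14, and the highest entry per symbol. The computation was tested on simulated data, which hold no variation between cultures. Software was Python 3.11.15, matplotlib 3.10.9, scipy 1.17.1, pandas 2.3.3 and numpy 2.4.6.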

Additional observations from a re-analysis of the deposited data

Results flagged for a closer look

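The DBZ ratios of 3 keratins had opposite signs with and without FGF10, as had those of 38.7% of the 12774 genes compared in both pairs of media, so that the sign alone does not set these keratins apart. For Krt10 the log2 ratio was -1.49 in +ND against +N and 0.80 in +NFD against +NF. For Krt4 the values were -2.67 and 1.01, and for Krt13 -1.75 and 1.06. The differences were not tested, since each medium has 1 library. The opposite signs held under all alternatives that gave a value for these genes. Krt10 could not be compared between +NFD and +NF with a filter at an FPKM of 5.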

How the results depend on the processing

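Of 80 counts of called members under alternatives, 76 were within 1.5 times the reported count and 4 were not. Scaled to Krt5 plus Krt14, 1 member in place of 3 was called lower in +ND against +N, and 4 in place of 1 were called higher in +NFD against +N. The latter count was 3 with a pseudocount of 0.1 and 3 without one, with Krt1 and Krt78 added, which passed the filter through +NFD alone and could only come out higher. Of the ratios of single keratins and class sums, 1 reversed, the epidermal sum in +ND against +N, from -0.15 to 0.71 when scaled to Krt5 plus Krt14. Another 6 fell inside the 2-fold limit, 17 passed it and 313 kept their direction and side. Depth limits Krt1 and Krt78 in +NF and the 0 values of Krt2. No analysis paired by replicate could be made because each medium has 1 library, and for the same reason no replicate could be left out.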
